A study of Mus musculus with 2 samples.

Results

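The heat shock chaperones described here are 10 genes for abundant protein folding factors, read in naive CD8+ T cells labelled as carrying a deletion of the transcription factor Bcl11b and in wild-type cells. Hspa5 and Hsp90b1 act in the endoplasmic reticulum (ER), Hsp90aa1, Hsp90ab1, Hspa8, Hsph1, Dnaja1 and Dnajb1 in the cytosol, and Hspd1 and Hspe1 in mitochondria. The genes were taken by name from the gene probes of both arrays, with Hsph1 listed there under its older name Hsp110. They have 17 of the 43379 gene spots on each array, and all 10 are among the 9281 genes measured, each clear of background in all 4 samples and none saturated.

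Chaperones bind unfolded or partly folded proteins and keep them from aggregating until they fold, cross a membrane or are degraded. HSP70 proteins do this in cycles of ATP hydrolysis that J proteins start and nucleotide exchange factors end, and HSP90 proteins take over late folding of clients such as kinases and receptors, in T cells among them the kinase Lck. Many cytosolic and mitochondrial chaperone genes are classical targets of heat shock factor 1, which binds heat shock elements, and the ER genes are known targets of the unfolded protein response, which acts through ER stress elements.

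The study compared Bcl11bF/F/dLck-iCre cells (KO), labelled with the red dye Cy5, with wild-type cells (WT), labelled with the green dye Cy3, on 2 Agilent arrays that carry both dyes and are labelled biological replicates. All samples were CD44low CD25low CD8+ T cells from naive C57BL/6 mice, sorted to a stated purity above 90%, and the dLck-iCre transgene drives Cre recombinase from the distal Lck promoter, active in T lineage cells. The WT cells are not said to carry the floxed alleles or the transgene, and the number and age of mice per sample are not given in the sources used here. KO was red on both arrays, so genotype and dye cannot be told apart, and both arrays lay on 1 slide.

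The libraries differed in ways that bear on every ratio below. The gene spots well above background numbered 17276 in KO and 10739 in WT on array 1, and 10955 in KO and 13446 in WT on array 2. The log2 ratios of all genes spread more widely on array 1 (SD 1.01) than on array 2 (SD 0.41), and correlated across genes with r = 0.29 (rho = 0.32), a description over genes that share arrays. Bcl11b itself stood at -1.45 and -1.73 on the log2 scale (mean -1.59 ± 0.19, SD, n = 2; adjusted p = 0.0747), and a second probe at -0.35 and -2.32. The Y-linked genes Ddx3y and Eif2s3y were above background in KO only on array 1 and in WT only on array 2. All 9 CD8 T cell markers were above background in all 4 samples, and none passed the test, but their median log2 ratios were 0.66 and 0.42. Their ratio was above 0 on both arrays for 7 of 9 and below on both for none, against 30.9% and 30.8% of all genes. The summed signals of the 9 were 509700 and 482500 in KO and 344200 and 328800 in WT. Of the NK cell markers 3 of 6 measured rose (Fcer1g, Klrb1c and Tyrobp). Klrd1 (0.81 and 1.155), Eomes (0.63 and 0.74) and Ncr1 (-0.20 and 0.86) did not pass. The 6 had summed signals of 67610 and 139700 in KO, against 32960 and 31560 in WT. On both arrays all 6 were well above background in KO and 3 in WT, and Fcer1g was so in WT on neither array. Of the myeloid markers 5 of 8 measured rose, against 1.24% of all genes. The 8 had summed signals of 21160 and 22350 in KO and 4064 and 11290 in WT. On both arrays 7 of them were well above background in KO and 1 in WT. Most thus entered the fit through KO alone, so the 8 are selected for KO signal. Of the myeloid markers that rose, Lyz2 was at 4.035 on array 1 but -0.38 on array 2, and the others were above 0 on both arrays. C1qa (0.88 and 1.20), C1qb (0.57 and 0.90) and Cd14 (-0.40 and -0.08) did not pass. Cd68 and Itgam were not well above background in either genotype. Of the B cell markers, none of the 3 measured passed, and Cd79a and Pax5 were not well above background. Whether KO T cells or other cells gave the NK cell and myeloid marker signals cannot be told apart in bulk RNA. Nor can fewer cells of a type and less RNA per cell. The part of cell composition and of the sex of the mice in the chaperone values was not tested.

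Most chaperone genes stood higher in KO than in WT cells, and the 2 ER members were among the highest. The members' log2 ratios were mostly larger on array 1, where those of all genes also spread more widely. By rank among all genes, Hspa5, Hspa8, Hsph1, Dnaja1 and Dnajb1 stood higher on array 2 and the other members on array 1. Hsp90b1, the ER form of HSP90, was the only member to rise past the test, with a mean log2 ratio of 2.22 ± 2.35 (SD, n = 2; adjusted p = 0.00189). Hspa5, Hsp90aa1 and Hsph1 had mean log2 ratios of 1.04 to 1.38, Hspd1 and Dnaja1 of 0.92 and 0.86, and Dnajb1, Hspa8, Hsp90ab1 and Hspe1 of 0.48 or less. The ratio was above 0 for all 10 members on array 1, against 51.9% of all measured genes, and for 8 on array 2, against 48.2%. It was above 0 on both arrays for these 8, against 30.9% of all genes, and below 0 on both for none, against 30.8%. On array 1, 6 members were over 2-fold higher in KO (21.1% of all genes), and on array 2 none was (1.96% of all genes). None was over 2-fold lower, against 5.89% of all genes on array 1 and 0.873% on array 2.

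Each ratio was tested against 0 with limma, with Benjamini-Hochberg adjustment over all 9281 genes. Of the members 1 of 10 passed, against 138 of all genes (1.49%). That member rose, as 1.24% of all genes did (115 genes), and none fell, as 0.248% did (23 genes). With median centring in place of loess, 62 genes rose and 1 fell. At an unadjusted p under 0.05, 4 members were higher (8.2% of all genes) and none lower (1.56% of all genes). Because the spread was fully shared over genes, each mean had a standard error of 0.497, however far apart its own arrays were. A mean log2 ratio of at least 1.68 in size was needed to pass. The call of Hsp90b1 was lost under 5 of 9 other ways of processing the data, with adjusted p between 0.0672 and 0.733, and on array 2 alone its log2 ratio was 0.56.

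**Figure D1:**
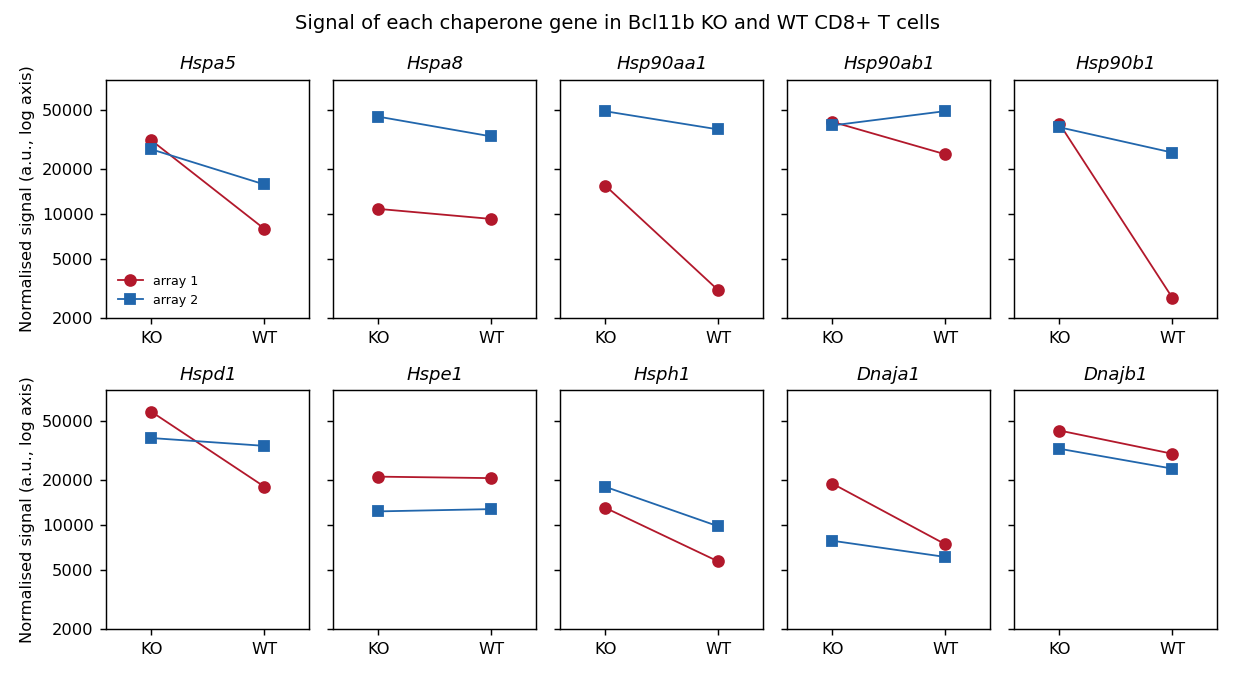
Normalised signal (arbitrary units, log axis) of each chaperone gene in Bcl11b KO and WT CD8+ T cells, a point per array with a line joining the 2 samples of an array. The lines of array 1 are steepest for Hsp90b1 and Hsp90aa1, where WT signals were 2747 and 3080, and the lines of Hspe1 are nearly flat.

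Hspa5 (BiP, GRP78) is the HSP70 of the ER lumen and also holds the sensors of the unfolded protein response in their resting state. Its promoter and that of Hsp90b1 are shown because both hold an ER stress element, written here in capitals; the sequences are the RefSeq windows of GRCm38.p6, 250 bases before to 50 after the start site, for Hspa5 at chr2:34771840-34772139 on the plus strand and for Hsp90b1 at chr10:86705395-86705694 on the minus strand.
Hspa5: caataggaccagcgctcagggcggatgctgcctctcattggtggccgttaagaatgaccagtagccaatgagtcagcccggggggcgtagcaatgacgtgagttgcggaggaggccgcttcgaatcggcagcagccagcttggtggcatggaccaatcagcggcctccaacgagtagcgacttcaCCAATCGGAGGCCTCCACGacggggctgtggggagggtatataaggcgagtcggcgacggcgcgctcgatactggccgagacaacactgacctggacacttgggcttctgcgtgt
Hsp90b1: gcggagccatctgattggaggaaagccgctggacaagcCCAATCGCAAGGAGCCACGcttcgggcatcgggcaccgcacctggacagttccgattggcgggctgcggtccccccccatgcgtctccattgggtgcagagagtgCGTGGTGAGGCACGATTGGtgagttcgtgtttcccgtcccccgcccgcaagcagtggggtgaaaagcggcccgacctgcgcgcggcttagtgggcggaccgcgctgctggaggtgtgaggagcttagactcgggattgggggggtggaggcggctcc
The element was searched on both strands as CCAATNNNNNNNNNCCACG, which contains the shorter words CCAAT and CCACG. It was found in 39 of 32851 mouse promoter windows of this length (0.119%), and in 2 of the 12 windows that the RefSeq table gives for 7 of the chaperone genes. In Hspa5 it lies at bases -65 to -47 from the start site. In Hsp90b1 it occurs at -212 to -194 and, in the opposite orientation, at -107 to -89. The word CCACG alone was in 10 of these 12 windows, against 32.8% of all windows, and CCAAT in 8 of them, against 37.4%. Some of the 12 windows overlap.

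The signal of Hspa5, from a probe at chr2:34598119-34598178 (mm8, plus strand), was 31298 and 27254 units in KO on arrays 1 and 2, against 7968 and 15839 units in WT. Both KO samples lay above both WT samples, and the WT sample of array 1 was the lowest of the 4. The log2 ratios were 1.97 and 0.78, a mean of 1.38 ± 0.84 (SD, n = 2; 95% interval 0.40 to 2.35; adjusted p = 0.184), which did not pass. By the ratio Hspa5 was the 538th highest gene of 9281 on array 1 and the 285th on array 2.

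Hsp90b1 (endoplasmin, GRP94) folds Toll-like receptors and integrins in the ER. Its brighter probe, at chr10:86128383-86128442 (mm8, minus strand), gave 40466 and 38349 units in KO, against 2747 and 25933 units in WT. The KO samples were alike and above both WT samples, and the WT sample of array 1 stood far below the other 3. The ratio was 14.7-fold on array 1 and 1.48-fold on array 2 (log2 ratios 3.88 and 0.56, 95% interval of the mean 1.25 to 3.20). Both array values lie outside this interval, which uses the spread shared over all genes and not that of Hsp90b1. The gene ranked 29th on array 1 and 536th on array 2. The uncorrected WT signal behind the array 1 value was 1772, where the negative control spots of that channel had a median of 1087, against 19249 on array 2. A second probe, at chr10:86120824-86120883, gave 25621 and 26954 units in KO and 7105 and 14879 units in WT. Its groups did not overlap either, with log2 ratios of 1.85 and 0.86 (mean 1.35 ± 0.70, SD, n = 2). The probes thus differed more on array 1 than on array 2, and with the mean of both the ratio was 1.79 (adjusted p = 0.0151).

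Hsp90aa1, the more inducible cytosolic HSP90, followed the same order of arrays but overlapped between genotypes. Its probe, at chr12:111138851-111138910 (mm8, minus strand), gave 15518 and 49110 units in KO and 3080 and 37095 units in WT. Both array 2 samples were above both array 1 samples, and KO was above WT within each array. Array 1 gave a log2 ratio of 2.33 and array 2 of 0.40 (mean 1.37 ± 1.36, SD, n = 2; 95% interval 0.40 to 2.34; adjusted p = 0.187). The uncorrected WT signal was 1890 on array 1, against the negative control median of 1087 there.

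Hsp90ab1, the constitutive cytosolic HSP90, went in opposite directions on the arrays. Its brighter probe, at chr17:45031858-45031917 (mm8, minus strand), gave 41697 and 39464 units in KO and 25244 and 49235 units in WT. The WT samples held both the lowest and the highest value. The log2 ratios were 0.72 and -0.32 (mean 0.20 ± 0.74, SD, n = 2; 95% interval -0.77 to 1.18; adjusted p = 0.954), and a second probe gave -0.16 and -0.65.

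Hspa8 (HSC70) is the constitutive cytosolic HSP70 and also uncoats clathrin vesicles. Its brighter probe, at chr9:40555660-40555719 (mm8, plus strand), gave 10848 and 45172 units in KO and 9288 and 33292 units in WT. Array 2 was higher than array 1 in both genotypes, so the groups overlapped, and KO was above WT within each array. Its log2 ratios were 0.22 and 0.44 (mean 0.33 ± 0.15, SD, n = 2; 95% interval -0.64 to 1.31; adjusted p = 0.929). A second probe gave 0.42 and -0.06. Hspa8 has near-identical copies elsewhere in the genome that its probes may also detect.

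Hsph1 (HSP105, HSP110 family) is a nucleotide exchange factor of cytosolic HSP70 and had ratios near each other on the 2 arrays. Its promoter and that of Hspe1 are shown because both hold a heat shock element of at least 3 units, in capitals; in Hsph1 a separate 2-unit match is also in capitals. The RefSeq windows (GRCm38.p6) are chr5:149636287-149636586 on the minus strand for Hsph1, from the first of its 2 listed start sites, and chr1:55087898-55088197 on the plus strand for Hspe1.
Hsph1: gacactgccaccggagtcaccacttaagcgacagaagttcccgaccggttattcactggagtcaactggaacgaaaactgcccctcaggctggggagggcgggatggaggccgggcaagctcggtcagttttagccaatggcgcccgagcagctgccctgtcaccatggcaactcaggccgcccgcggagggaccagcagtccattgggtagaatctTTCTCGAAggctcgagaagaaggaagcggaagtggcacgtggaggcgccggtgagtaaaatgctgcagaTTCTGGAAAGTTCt
Hspe1: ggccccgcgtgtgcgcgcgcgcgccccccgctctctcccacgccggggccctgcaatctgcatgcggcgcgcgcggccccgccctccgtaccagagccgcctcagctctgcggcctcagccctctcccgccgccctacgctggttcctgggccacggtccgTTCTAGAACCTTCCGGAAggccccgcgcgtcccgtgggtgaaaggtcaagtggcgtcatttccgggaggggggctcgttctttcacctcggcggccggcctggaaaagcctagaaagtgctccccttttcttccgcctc
The 2-unit element was searched on both strands as GAANNTTC or TTCNNGAA and the 3-unit element, which contains it, as GAANNTTCNNGAA or TTCNNGAANNTTC. The 2-unit form was in 5 of the 12 chaperone windows (of Dnaja1, Hspd1, Hspe1 and Hsph1), against 15.1% of all windows. The 3-unit form was in 4 of the 12 (of Hspd1, Hspe1 and Hsph1), against 198 of 32851 windows (0.603%). The 2 Hsph1 windows hold the same matches, as do the second Hspd1 window and that of Hspe1. In the Hsph1 window the matches lie at bases -33 to -26 and 37 to 49, and in the Hspe1 window at -89 to -72. A match describes the letters of a window, and binding there was not measured.

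**Figure D2:**
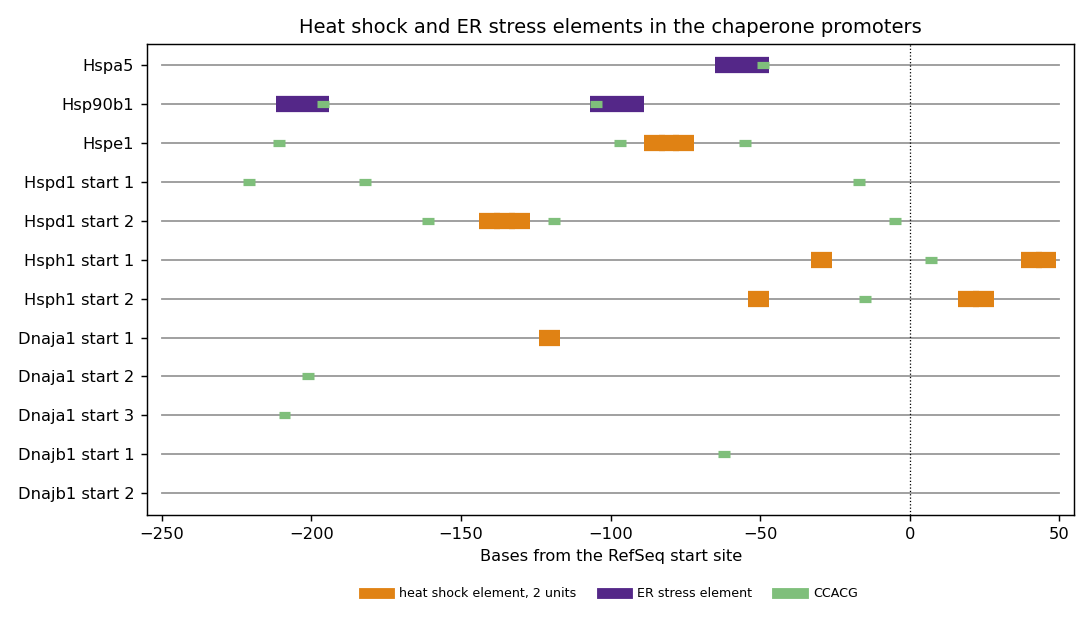
Positions of the searched words in the 12 RefSeq promoter windows of 7 chaperone genes, in bases from the start site (dotted line), with heat shock elements in orange, ER stress elements in purple and CCACG in green. ER stress elements appear in the windows of Hspa5 and Hsp90b1, and heat shock elements in those of Hspe1, Hspd1, Hsph1 and Dnaja1.

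The Hsph1 probe, at chr5:149885230-149885289 (mm8, minus strand), gave 13003 and 18002 units in KO and 5674 and 9778 units in WT. Both KO samples lay above both WT samples. On the log2 scale the arrays gave 1.20 and 0.88 (mean 1.04 ± 0.22, SD, n = 2; 95% interval 0.06 to 2.01), and the adjusted p was 0.447. On array 2 Hsph1 had the highest ratio of the 10 members, the 225th highest of all genes there, and on array 1 it was 1535th.

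Dnaja1 and Dnajb1 are J proteins, which deliver substrates to cytosolic HSP70 and start its ATP hydrolysis. The brightest Dnaja1 probe, annotated from chr4:40918944 to 40920399 (mm8, plus strand), gave 18920 and 7821 units in KO and 7406 and 6089 units in WT. KO lay above WT without overlap, by little between KO on array 2 and WT on array 1. The log2 ratios were 1.35 and 0.36 (mean 0.86 ± 0.70, SD, n = 2; 95% interval -0.12 to 1.83; adjusted p = 0.628). Other probes of Dnaja1 gave 1.07 and 0.12, and, for a dim probe left out of the fit, 0.77 and 0.23, so all 3 had the larger ratio on array 1.

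The brighter Dnajb1 probe, at chr8:86501866-86501925 (mm8, plus strand), gave 43034 and 32455 units in KO and 30039 and 23868 units in WT. Both KO samples were above both WT samples, and array 1 was above array 2 in both genotypes. Log2 ratios of 0.52 and 0.44 resulted (mean 0.48 ± 0.05, SD, n = 2; 95% interval -0.49 to 1.45; adjusted p = 0.894). The second Dnajb1 probe disagreed on array 1, with -0.19 there and 0.71 on array 2.

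Hspd1 (HSP60) and Hspe1 (HSP10) form the folding chamber and the lid of the mitochondrial chaperonin and are encoded head to head on chromosome 1. In RefSeq (GRCm38.p6) the start site of Hspe1 lies at base 55088148 and those of Hspd1 at 55088243 and 55087932. The second Hspd1 window holds the same 3-unit heat shock bases as the Hspe1 window printed above, read from the other strand, at -144 to -127 from its own start site.

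The brighter Hspd1 probe, at chr1:55022530-55022589 (mm8, minus strand), gave 57499 and 38306 units in KO and 18057 and 33947 units in WT. KO lay above WT without overlap, and the WT sample of array 1 was the lowest by a wide margin. Array 1 gave a log2 ratio of 1.67 and array 2 of 0.17 (mean 0.92 ± 1.06, SD, n = 2; 95% interval -0.05 to 1.90; adjusted p = 0.565). A second Hspd1 probe, not well above background in WT on array 1, gave 1.13 and 0.04.

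The Hspe1 probe, at chr1:55035623-55035682 (mm8, plus strand), gave 21080 and 12318 units in KO and 20608 and 12759 units in WT. The genotypes were nearly equal within each array, and array 1 was above array 2 in both. Its log2 ratios were 0.03 and -0.05 (mean -0.01 ± 0.06, SD, n = 2; 95% interval -0.98 to 0.96; adjusted p = 0.999). On array 1 Hspd1 thus stood at 1.67 and Hspe1 at 0.03, and on array 2 at 0.17 and -0.05. The difference between the genes was not tested.

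**Figure D3:**
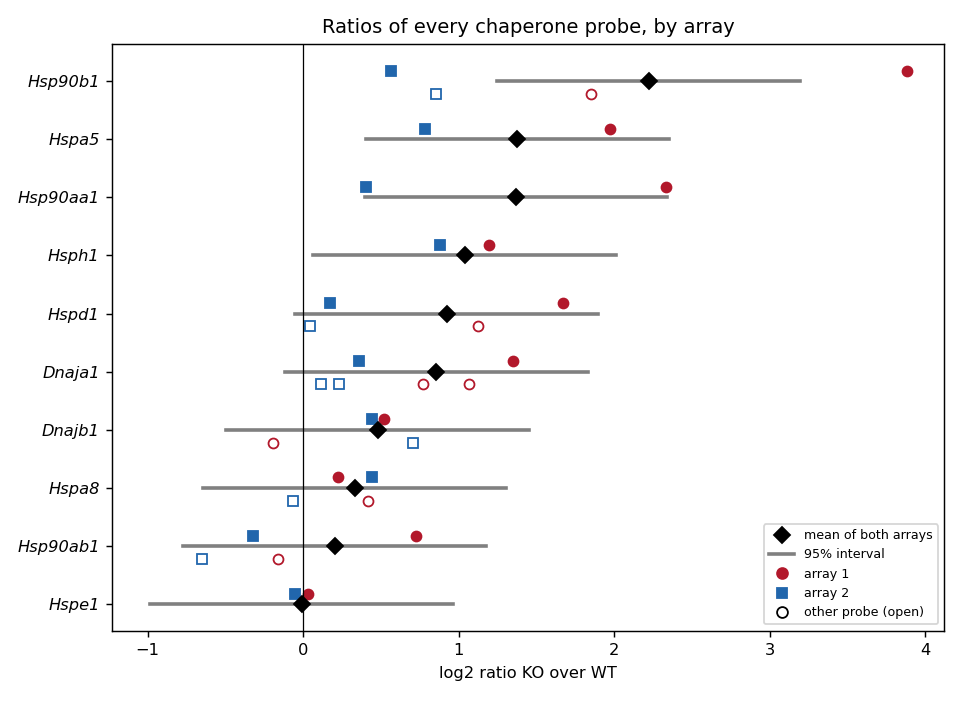
Log2 ratio of KO over WT for every chaperone probe, with array 1 as red circles, array 2 as blue squares, open symbols for a gene's other probes, black diamonds for the mean of both arrays and grey bars for its 95% interval. The interval lies above 0 for Hsp90b1, Hspa5, Hsp90aa1 and Hsph1, and the array 1 value exceeds the array 2 value for 9 of 10 genes.

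Across the members the larger ratio was on array 1 for 9 of 10, against 50.6% of all genes, Hspa8 being the exception. That share of all genes includes those below 0. Ratios spread more widely on array 1, so a gene above 0 there, as all members were, tends to have its larger ratio there. The median log2 ratio of the members was 1.27 on array 1 and 0.42 on array 2, where that of all measured genes was 0.05 and -0.01. Among the 928 genes of highest mean signal, a set chosen after the data were seen that holds 8 of the members, it was 0.06 and 0.04. The median of the members' means was 0.89, and array 2 alone gave 0.42. Both KO signals were above both WT signals for 6 of 10 members, against 21.2% of all genes, and below for none, against 20.8%. The 12 housekeeping genes listed for comparison, 11 of them measured, had medians of 0.57 and -0.05, so they too stood higher in KO on array 1. Of these, 1 passed the test, Ywhaz, at 3.77 and -0.09, with a probe well above background in WT on 1 array only. Its other probe gave 1.66 and -0.17. The CD8 T cell markers, at 0.66 and 0.42, had a lower median than the members on array 1 and a like median on array 2.

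**Figure D4:**
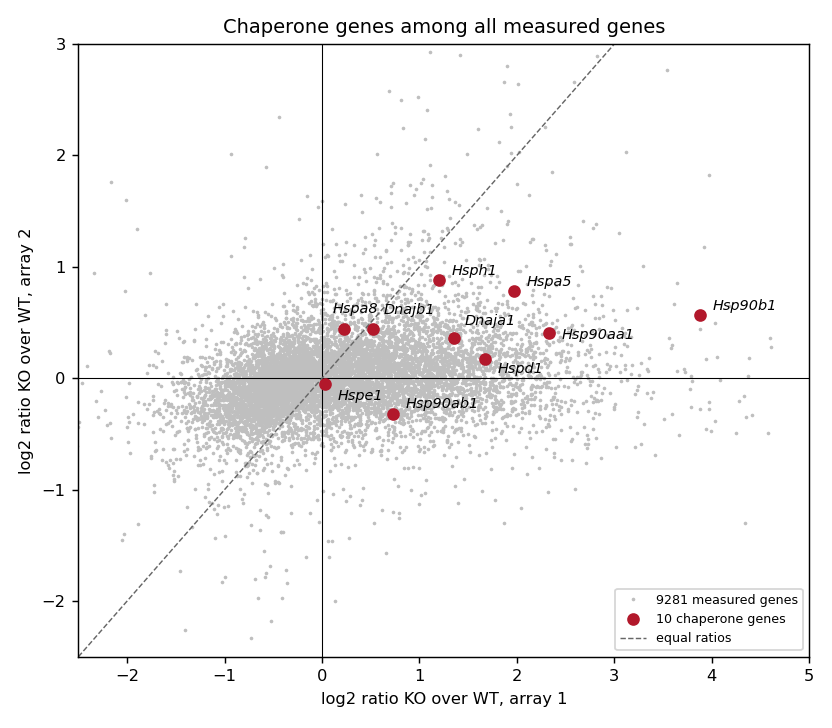
Log2 ratio of KO over WT on array 1 (x axis) and array 2 (y axis) for the measured genes in grey and the 10 chaperone genes in red, with 53 genes outside the axes. All chaperone genes but Hspa8 lie to the right of the line of equal ratios, and Hsp90b1 lies far right at 3.88 and 0.56.

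Genes that work with the chaperones were read from lists chosen by function. For comparison with the lists below, 30.9% of all measured genes had a ratio above 0 on both arrays and 1.24% rose. Of 19 measured genes of ER folding and the unfolded protein response, 1 rose and no member fell, and the ratio exceeded 0 on each array for 12. The median log2 ratios of this list were 0.84 and 0.49. Pdia4, a protein disulfide isomerase, was the gene that rose, at 2.78 and 0.74 (mean 1.76 ± 1.44, SD, n = 2; adjusted p = 0.0333), with signals of 5349 and 3425 units in KO and 780 and 2050 units in WT. It was well above background in WT on 1 array only. Named after their values were seen, Herpud1, of ER-associated degradation, was at 1.05 and 1.00, and Xbp1, a transcription factor of the response, at 1.59 and 0.65, neither past the test. Ddit3 (CHOP), which rises in prolonged ER stress, was also chosen after its values were seen and was at -0.99 and -0.03 without passing.

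Of 13 measured HSP90 cochaperones, 1 rose and none fell, with 7 above 0 on both arrays and medians of 0.39 and 0.11. Chordc1, an HSP90-binding protein with CHORD domains, rose, at 2.88 and 0.66 (mean 1.77 ± 1.57, SD, n = 2; adjusted p = 0.0325). Its signals were 11970 and 5684 units in KO and 1630 and 3603 units in WT, and a second probe, at -0.10 and 0.10, did not share the difference. As with every call made here, those of Pdia4 and Chordc1 were lost under the 4 ways of processing that called no gene at all. Pdia4 also did not enter the fit that required both channels above background on both arrays. The call of Chordc1 rests on its brighter probe alone. Results under the other settings are not given here for either gene. None of 15 other J proteins passed, with 7 above 0 on both arrays and medians of 0.95 and 0.04. Dnajc1 was at 1.69 and 0.42, although its other probe gave 0.92 and -0.22. Dnajc5, of synaptic and secretory vesicles, was at 1.62 and 0.35 (other probe 2.61 and 0.68), and Dnajb11, an ER partner of Hspa5, at 1.54 and 0.32. Dnajb4 was at 0.87 and 0.70 (other probe 0.81 and 0.63).

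Of 13 other HSP70 and HSP110 genes and exchange factors none passed, and their medians were 0.10 and 0.08. The ratio was above 0 on both arrays for 5 of 13, against 30.9% of all genes. Of genes whose 2 ratios agreed in sign, the largest were Hspbp1, an exchange factor of HSP70, at -1.02 and -0.39, Hspa14 at 0.97 and 0.11, Hspa13 at 0.63 and 0.29, and Grpel1, the mitochondrial exchange factor, at 0.88 and 0.03. Second probes of Hspbp1 (-0.41 and -0.15), Hspa13 (1.17 and 0.48) and Grpel1 (0.47 and 0.09) had the same signs. Hspa1a, the stress-inducible HSP70, is named after its values were seen, with -2.69 on array 1 but 1.88 on array 2. Its probe may also detect the near-identical Hspa1b. All 7 measured genes of the cytosolic chaperonin TRiC had opposite signs on the arrays, with medians of 0.38 and -0.11, and none passed. Of 10 heat shock factors and small heat shock proteins 2 were measured, and neither passed. Hsf1, the main heat shock factor, was at -1.58 and -0.25, its other probes giving -0.46 and -0.04, and -0.57 and 0.23. Cryab, a small heat shock protein, was at -0.78 and -0.48 and not well above background in KO.

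Early genes that cell handling can induce were read beside these lists. None of 11 measured passed, and their medians were -0.03 on array 1 and 0.77 on array 2, the reverse of the members' order of arrays. The ratio was above 0 on both arrays for 5 and below on both for 2, against 30.9% and 30.8% of all genes. The genes of largest mean ratio did not follow the list's order of arrays. Btg2 was at 1.80 and 0.92, its other probes giving -0.02 and 0.71, and 0.86 and 0.97, Egr1 at 2.00 and 0.63, Dusp1 at 1.05 and 0.83 and Nr4a1 at 0.91 and 0.77. Named after their values were seen, Junb was at -0.63 and 0.89, Fosb at -0.52 and 0.67, and Fos at 0.21 and 1.06. Their part in the chaperone ratios was not tested.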

How the data were processed

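The deposited scanner files hold, per the file headers, a mean signal intensity and a median local background intensity per spot and dye, a log10 ratio of red over green and flags for dim, saturated or uneven spots, coded as other values. Per the submitters' processing notes the software was Agilent Feature Extraction 9.5.3.1. The authors' deposited value table lay within 0.005 of the scanner log ratio. Here, intensities were corrected with normexp (offset 50), ratios normalised by loess within each array, and control and outlier spots left out, in R 4.3.3 with limma 3.58.1. A signal is the single-channel value after loess and Aquantile scaling. Probes entered the fit when KO, or WT, was well above background on both arrays, and the kept probe of highest mean signal stood for its gene. Of 41174 probes, 24375 were named by accession, 6301 by symbol, 2426 by an older symbol in RefSeq tables and 8072 by the file's own name. Log2 ratios of KO over WT were tested with lmFit and eBayes (1 residual degree of freedom), the array pairing KO and WT. The estimated prior degrees of freedom were infinite, so a gene's own spread did not enter its test or its 95% interval. The number of arrays limits the precision. The fit was also run on simulated ratios whose noise was independent between arrays. Such data lack the correlation and dye layout of the real arrays, so they do not bear on the calls made here. All members were named; from each list up to 4 genes were named, those of largest mean ratio that passed or, failing these, whose 2 ratios shared a sign, and others are said to be chosen after their values were seen. Members and lists were chosen with earlier results of these data known. Probe positions are on mm8 per the file headers; no mm8 annotation was used here, so exons are not given. The RefSeq promoter table (GRCm38.p6) matched 7 members; Hspa8, Hsp90aa1 and Hsp90ab1 had no entry.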

Additional observations from a re-analysis of the deposited data

How the results depend on the processing

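With 2 arrays of the same dye layout, array and replicate are the same thing, and no ratio can be separated from dye. The 138 genes past the test became 32 without background correction, 63 with median centring in place of loess, 40 when a probe had to be above background in both channels on both arrays (26 higher and 14 lower), and 0 with the scanner's log ratio, ratios scaled between arrays, no filter on dim probes, or separate channels with no replicate block. At an unadjusted p under 0.05, limma still gave 571, 905, 2478 and 442 genes in these 4 fits. An offset of 0 and the mean of a gene's probes gave 152 and 147. The 1 member past the test became 0 without background correction and under the same 4 settings that called no gene, where 6, 0, 5, 3 and 2 members had an unadjusted p under 0.05, in that order. The adjusted p of Hsp90b1 ranged from 0.00355 to 0.733. Leaving out the pairing of KO and WT within an array (no replicate block) cannot change a ratio here, so the members' median of 0.89 is the same by construction and only the test differs. With median centring the median of all genes was 0.683, against 0.04 with loess, and the members' median was 1.86. The other alternatives gave medians between 0.74 and 0.91, the 2 filter settings leaving every member's ratio as it was, and leaving out either array gave 0.42 to 1.27. Of the members' mean ratios 2 changed direction under an alternative: Hsp90ab1 at -0.10 with the mean of its probes, which disagree, and Hspe1 at 0.94 with median centring. Other causes were not tested.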

Other observations

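Other measured genes whose RefSeq promoter window holds the same elements were read beside the chaperones. Without the members, 10 genes with an ER stress element were measured. Their median log2 ratios were 0.61 on array 1 and 0.26 on array 2. Of the 10, 6 were above 0 on both arrays, against 30.9% of all measured genes, and none passed the test. Among them Canx, the ER lectin calnexin, was at 2.44 and 0.22, and Alg12, of N-glycan assembly, at 1.75 and 0.29. Calr, the soluble lectin calreticulin, was at -0.14 and 0.54. Hnrnpa3, an RNA-binding protein, was at 2.84 and 0.22 (adjusted p = 0.0975). These genes were picked after their values were seen. Of genes with a 3-unit heat shock element, 36 were measured besides the members, with medians of 0.21 and 0.04. Of these 36, 11 were above 0 on both arrays, a share near the 30.9% of all measured genes. The cochaperone gene Chordc1, described above, was the only one of them to pass, and none passed in the lower direction.

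Some probes name chaperone sequences without carrying a member's name. A probe for an expressed sequence described as endoplasmin gave 0.75 on array 1 and 0.35 on array 2, the same sign as both Hsp90b1 probes and a smaller size. A probe for a predicted gene similar to Hspa8 gave -0.15 and 0.24. Both were picked after their values were seen.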
